A study of Mus musculus with 59 samples.

Results

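The question here was what an expanded ATXN1 that can no longer bind its partner CIC does to gene expression in the hippocampus. RNA-seq counts from the dissected hippocampus of 4 *Atxn1* 154Q[V591A;S602D]/2Q mice, called 154Q-AXH in the sample labels, were compared with those of 4 WT mice at 10 weeks of age. The 8 libraries, of 59 in the series, were chosen by their labels for region and genotype, and no measured value entered the choice. The WT mice carry 2 unexpanded alleles (2Q) and are named WT-70 and WT-77, from a first number series, and WT-220 and WT-221, from a second. The mutant mice, 154Q-AXH-207 and 154Q-AXH-209 followed by 154Q-AXH-217 and 154Q-AXH-218, carry 1 unexpanded allele and 1 knockin allele with an expanded CAG repeat (154Q), into which CRISPR had introduced V591A and S602D, the substitutions made to break the contact with CIC. The strain label is C57BL/6, and founders had been backcrossed to C57BL/6J. The founder line from which these 4 mice came is not given in the sources used here. The allele is expressed from the mouse's own locus in all cells that use it, so the comparison is not restricted to a cell type.

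ATXN1 is a nuclear protein whose polyglutamine expansion causes spinocerebellar ataxia type 1. Its AXH domain binds CIC (Capicua), an HMG-box repressor that keeps genes of the MAPK pathway low, *Etv*, *Dusp*, and *Spry* genes among them. The hippocampus holds granule cells in the dentate gyrus, pyramidal cells in CA1, CA2, and CA3, and several classes of inhibitory interneuron, and it serves spatial and contextual memory. Excitatory input there induces immediate early genes such as *Fos*, *Arc*, and *Egr1* through the factors SRF and CREB, which bind CArG boxes and cyclic AMP response elements (CREs).

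Reference sequence is shown in 4 stretches, to which the results below return. The first is the part of the *Atxn1* coding sequence (GENCODE M21, GRCm38, minus strand of chromosome 13) that the substitutions change. The numbers 591 and 602 are those of the human protein. The study numbers the mouse residues higher than the human ones, unlike the codon numbers found here. The annotation holds 2 distinct mouse coding sequences. In the one used, of 791 codons, V591A falls on codon 566 and S602D on codon 577. They were located by the bases around the changed codons in the study's repair oligo. Codons 559 to 584 are printed in the unedited form, with the changed codons, for valine and serine, in capitals.
Atxn1 codons 559 to 584: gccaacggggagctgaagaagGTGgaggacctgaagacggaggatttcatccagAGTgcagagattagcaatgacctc
The other 3 are the 250 bases before the RefSeq start site (GRCm38.p6, plus strand) of *Dusp5*, *Plk2*, and *Nr4a1*, genes that were lowered and that stimulation of neurons or MAPK signaling is known to induce. Capitals mark CArG boxes (CCATATTTGG and CCTTATATGG), the full CRE TGACGTCA, and the CRE core TGACG on either strand. The CRE core is contained in the full CRE.
Dusp5 promoter, chr19:53528895-53529144: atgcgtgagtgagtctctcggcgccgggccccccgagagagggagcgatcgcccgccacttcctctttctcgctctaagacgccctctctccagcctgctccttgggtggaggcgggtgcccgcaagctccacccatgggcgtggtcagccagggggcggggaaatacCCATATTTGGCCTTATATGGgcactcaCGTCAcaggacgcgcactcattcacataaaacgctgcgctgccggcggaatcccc
Plk2 promoter, chr13:110394794-110395043: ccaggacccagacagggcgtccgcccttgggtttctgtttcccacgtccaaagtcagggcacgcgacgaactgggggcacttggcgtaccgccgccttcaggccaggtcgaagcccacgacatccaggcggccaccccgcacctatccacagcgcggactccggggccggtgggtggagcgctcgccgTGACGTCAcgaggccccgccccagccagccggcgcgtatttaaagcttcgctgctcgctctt
Nr4a1 promoter, chr15:101266596-101266845: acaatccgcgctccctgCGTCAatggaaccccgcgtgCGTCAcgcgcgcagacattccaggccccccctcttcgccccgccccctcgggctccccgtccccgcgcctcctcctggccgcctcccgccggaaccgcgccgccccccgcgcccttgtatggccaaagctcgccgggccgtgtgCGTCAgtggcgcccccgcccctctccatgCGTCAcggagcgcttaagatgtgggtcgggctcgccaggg

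The 8 libraries held 69.47 M to 106.5 M read pairs counted on genes, 76.34% to 78.03% of all read pairs. Values are given below as CPM, read pairs per M counted (M, mega), after TMM scaling and are compared only between libraries. Fold changes are log2 ratios of 154Q-AXH to WT with their standard errors, and a differentially expressed gene (DEG) had an adjusted p under 0.05 by the quasi-likelihood test of edgeR after Benjamini-Hochberg adjustment. The dissection was checked with 12 markers of hippocampal neurons. In WT mice, *Dsp*, a desmosomal gene of granule cells, stood at 71.6 CPM in the hippocampus and at most 2.79 in any other region, and *Fibcd1*, a CA1 marker, at 122 and at most 13.01. *Mpped1* alone among the 12 was higher elsewhere, at 174 CPM in the hippocampus and 279 in the cortex. Others separated the regions less well. *Bok* stood at 64.3 CPM against 61.8 in the striatum, *Wfs1* at 123 against 102 in the cortex, and *Rgs14* at 88.6 against 68.1 in the striatum. *Xist*, which is expressed in female cells, and the Y-linked gene *Ddx3y* set the library labelled 154Q-AXH-217 apart, with 965 CPM of *Xist* and 0.0565 of *Ddx3y*, while the other 7 libraries held at most 2.20 and at least 98.2 CPM. Choroid plexus tissue also varied. *Ttr*, its transthyretin gene, stood at 1445, 5124, 1626, and 1338 CPM in WT and 3100, 886, 163, and 39.0 CPM in 154Q-AXH mice, in the order of mouse numbers above, which is kept throughout.

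The RNA-seq reads cannot show the repeat or the substitutions in a count per gene, so *Atxn1* checks no genotype label here. *Atxn1* (chr13:45549755-45965008, minus strand, overlapped on the other strand by exons of *Gmpr*) stood at 78.6, 64.3, 75.4, and 81.4 CPM in WT and 89.3, 89.2, 92.8, and 97.7 CPM in 154Q-AXH mice. All 4 154Q-AXH values lay above the WT values, but the gene was not called (0.30 ± 0.073, adjusted p = 0.0659). It was called, as raised, in 2 of 19 alternative fits, DESeq2 among them. *Cic* stood at 116 to 148 CPM in WT and 126 to 148 CPM in 154Q-AXH mice, with overlapping groups (0.04 ± 0.083, adjusted p = 0.837). The sign of the *Cic* difference was negative in 5 alternative fits. None of the 11 tested genes in the list of ATXN1 and its partner factors was called, 2 had an unadjusted p under 0.05, and DESeq2 called 1, *Atxn1* itself. The DNA-binding partners *Rfx1*, *Zbtb5*, and *Zkscan1* had log2 fold changes of -0.11 ± 0.051, -0.05 ± 0.057, and 0.08 ± 0.063, and that of *Zkscan1* turned negative, to -0.00357, when the number series entered as a covariate.

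Of 20607 genes tested, 488 (2.37%) were DEGs, 200 raised (0.971%) and 288 lowered (1.4%). The lowered genes had the more counted reads, with a median WT level of 52.2 CPM against 9.16 CPM for the raised genes. CPM is not corrected for gene length, so this comparison between genes does not rank their transcript numbers. Most changes were modest, with a median absolute log2 fold change of 0.52, although 50 raised and 50 lowered genes changed by more than 1. The groups of 4 libraries did not overlap for 487 of the 488 DEGs, beside 12.3% of all genes tested. *Pax2*, named after its values were seen, was the exception. The median log2 fold change of all genes tested was -0.0023. In a bulk tissue, fewer cells of a type and less RNA per cell cannot be told apart. The number of DEGs rested on single libraries, and was 304 without WT-70, 171 without WT-220, 156 without WT-221, 193 without 154Q-AXH-209, and 137 without 154Q-AXH-217, the *Xist* library. It was 377 without WT-77, 375 without 154Q-AXH-207, and 582 without 154Q-AXH-218. These fits have 7 libraries each, and a call is said below to be lost without a library when that library was left out. Of 93 DEGs examined one by one, 50 were called in each of these 8 fits. Under all 19 alternatives tried, these 8 among them, 33 were called and all 93 kept their direction. Groups that do not overlap can hardly change direction when libraries are left out, so the kept direction says little. Exons of 146 DEGs share bases with another gene, which counts made without regard to strand cannot separate; *Penk*, *Bhlhe40*, *Epha10*, *Kcnh3*, *Scn9a*, *Dusp5*, and *Abcb1b* are among them.

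**Figure D1:**
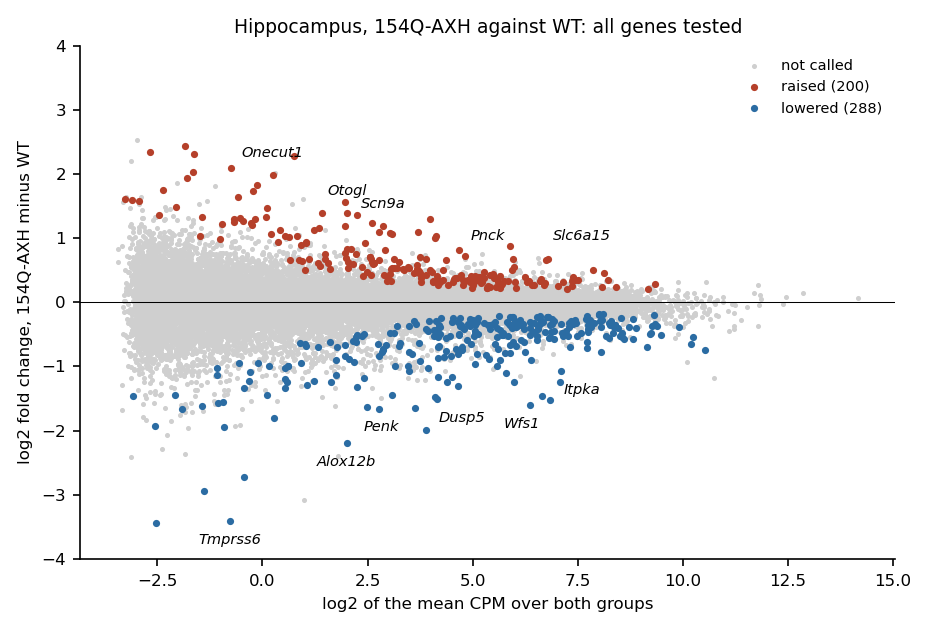
Log2 fold change of each of the 20607 tested genes in 154Q-AXH over WT hippocampus (vertical axis) against the log2 of its mean CPM over both groups (horizontal axis), with the 200 raised and 288 lowered DEGs in color. The lowered DEGs lie further to the right, at higher mean CPM, than the raised ones. *Xist*, at 7.34, lies outside the axis and was not called.

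*Penk*, which encodes the precursor of the enkephalin opioid peptides, had the lowest p of all genes. It stood at 19.8, 20.5, 17.0, and 17.5 CPM in WT and 6.10, 6.09, 5.96, and 5.78 CPM in 154Q-AXH mice, so that the 4 154Q-AXH libraries lay close together and far below all WT libraries (chr4:4133531-4138819, minus strand, -1.64 ± 0.080, adjusted p = 5.26e-05). *Bhlhe40*, which encodes the clock-linked repressor DEC1 (chr6:108660629-108666925, plus strand), stood at 112, 98.3, 117, and 111 CPM in WT and 59.7, 60.01, 60.2, and 55.4 CPM in 154Q-AXH mice (-0.90 ± 0.061, adjusted p = 0.000631). *Itpka*, a kinase for inositol trisphosphate in dendritic spines (chr2:119742337-119751263, plus strand), stood at 182, 189, 189.9, and 184 CPM in WT and 90.4, 102, 86.6, and 74.3 CPM in 154Q-AXH mice (-1.08 ± 0.083, adjusted p = 0.00138). In both genes the highest 154Q-AXH library lay below the lowest WT library. *Git1*, a scaffold and GTPase-activating protein for Arf at synapses (chr11:77493562-77507786, plus strand), stood at 351, 296, 331, and 353 CPM in WT and 204, 202, 189, and 183 CPM in 154Q-AXH mice (-0.77 ± 0.067, adjusted p = 0.00141). *Dusp5*, a nuclear phosphatase of ERK whose promoter is shown above (chr19:53529109-53542431, plus strand), stood at 26.2, 26.7, 25.5, and 27.1 CPM and 10.8, 8.44, 11.9, and 5.85 CPM (-1.51 ± 0.17, adjusted p = 0.00501). For *Git1* and *Dusp5*, too, the groups did not overlap, as in 487 of the 488 DEGs.

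The other genes among the 15 lowered DEGs with the lowest p values also fell without overlap between groups, a condition under which all 15 were chosen. They include *Grasp* (-0.66 ± 0.052), whose product tamalin holds group 1 metabotropic glutamate receptors at the synapse, and *Epha10* (-0.81 ± 0.068), an ephrin receptor. *Scn4b* (-1.16 ± 0.10) encodes a beta subunit of sodium channels and *Kcnh3* (-0.59 ± 0.057) a voltage-gated potassium channel of forebrain neurons. *Sema7a*, a membrane-anchored semaphorin, changed by -0.57 ± 0.058, *Ctxn1*, which encodes cortexin, by -0.47 ± 0.046, *Rflnb*, which encodes a filamin-binding protein, by -1.06 ± 0.11, and *Hipk4*, a kinase, by -0.66 ± 0.054. A few of the lowered genes are best known outside the brain. *Tmprss6*, the serine protease that restrains hepcidin in liver, stood at 1.03, 1.43, 0.844, and 0.988 CPM in WT and 0.164, 0.0994, 0.0848, and 0.0408 CPM in 154Q-AXH mice (-3.40 ± 0.34, adjusted p = 0.00258), and *Alox12b*, a skin lipoxygenase, at 6.29, 5.92, 7.19, and 6.98 CPM and 1.88, 1.52, 1.41, and 0.817 CPM (-2.20 ± 0.19). Every WT library lay above every 154Q-AXH library in both. With *Stoml3*, a stomatin-like regulator of mechanosensitive channels (-2.73 ± 0.36), *Ankrd63* (-1.99 ± 0.36), and *Nhlh1*, a neuronal basic helix-loop-helix factor (-1.79 ± 0.34), they form the 5 lowered DEGs of largest fold change above 1 CPM. *Ankrd63* and *Nhlh1* each lost the call without WT-220, WT-221, 154Q-AXH-209, or 154Q-AXH-217, with further losses of *Ankrd63* without WT-70 and *Nhlh1* without WT-77 (adjusted p = 0.0572 to 0.093).

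Raised genes were led by *Pnck*, a calcium/calmodulin-dependent protein kinase of the CaMKI family (chrX:73655994-73660117, minus strand). It stood at 48.9, 51.4, 48.3, and 43.7 CPM in WT and 73.0, 73.0, 79.1, and 81.8 CPM in 154Q-AXH mice, every 154Q-AXH library above every WT library (0.67 ± 0.063, adjusted p = 0.00242). *Slc6a15*, a transporter of branched-chain amino acids and proline into neurons (chr10:103367783-103419377, plus strand), stood at 81.3, 83.4, 90.9, and 87.0 CPM in WT and 126, 132, 138, and 153 CPM in 154Q-AXH mice (0.68 ± 0.067, adjusted p = 0.00258). *Scn9a*, the sodium channel Nav1.7 of sensory and some central neurons (chr2:66480080-66634962, minus strand), stood at 4.31, 5.09, 4.63, and 3.86 CPM in WT and 8.45, 10.0, 12.1, and 10.4 CPM in 154Q-AXH mice (1.18 ± 0.13, adjusted p = 0.00318). The somatostatin receptor gene *Sstr1* (chr12:58211772-58214444, plus strand) stood at 8.43, 7.14, 9.55, and 7.91 CPM in WT and 17.9, 14.4, 21.8, and 16.4 CPM in 154Q-AXH mice (1.097 ± 0.13, adjusted p = 0.00649). None of these 3 showed overlap between the groups, a condition under which the 15 raised genes were chosen. *Cbx8*, a chromobox subunit of Polycomb repressive complex 1, rose by 0.51 ± 0.067. *Rimklb*, an enzyme that makes N-acetylaspartylglutamate (0.51 ± 0.061), and *Abcb1b*, a drug efflux pump (0.70 ± 0.095), rose as well. Genes known from the germ line were present in the group, *Tdrd12*, of the piRNA pathway (1.47 ± 0.19), *Tex15* (1.39 ± 0.18), and the testis anion transporter *Slc26a8* (0.67 ± 0.087). Other members of the 15 were *Otogl* (1.39 ± 0.15), the C-type lectin *Clec1a* (1.56 ± 0.19), *B430212C06Rik* (1.19 ± 0.14), and *6530403H02Rik* (1.16 ± 0.15). The raised DEG of largest fold change above 1 CPM, among those without overlap between groups, was *Onecut1*, a homeodomain factor (0.288, 0.300, 0.629, and 0.722 CPM in WT, 1.34, 1.58, 1.43, and 3.16 CPM in 154Q-AXH mice, 1.98 ± 0.39). Next came *Spag17os* (1.83 ± 0.35), the lectin *Clec9a* (1.73 ± 0.27), and *Gm40576* (1.64 ± 0.25). *Onecut1*, *Spag17os*, and *Clec9a* each lost the call without WT-221, with further losses of *Onecut1* and *Spag17os* without WT-70, WT-77, WT-220, 154Q-AXH-209, or 154Q-AXH-217 (adjusted p = 0.0514 to 0.0883).

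**Figure D2:**
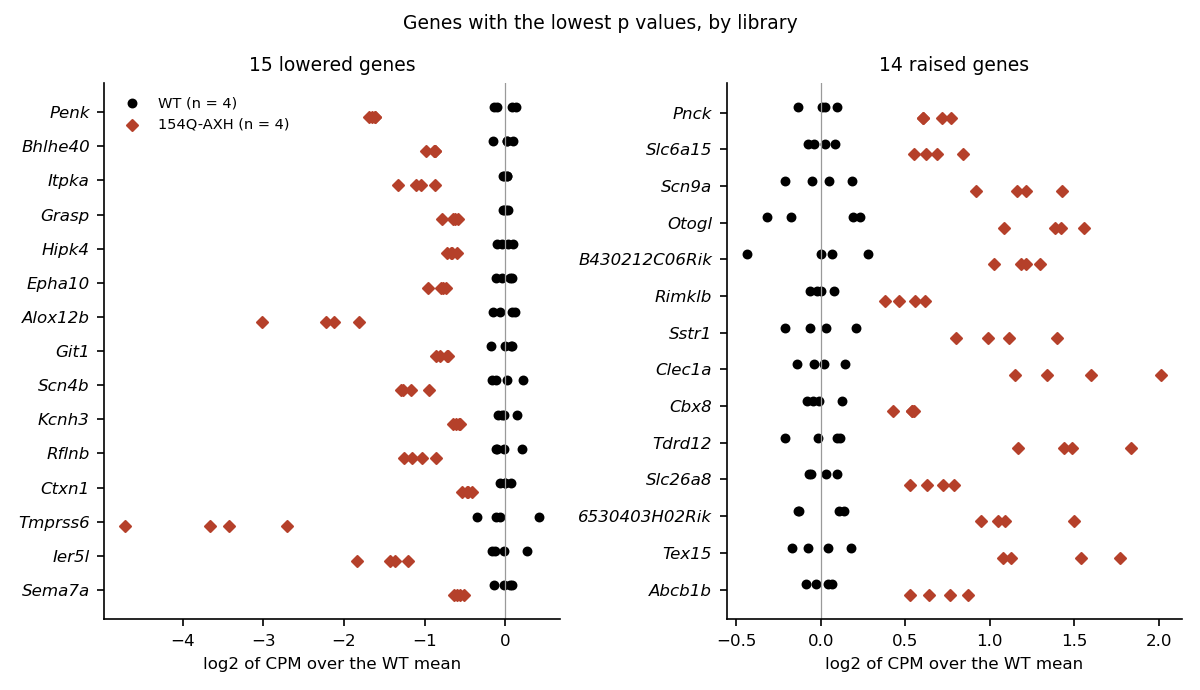
The 15 lowered DEGs with the lowest p values and 14 of the 15 raised ones, shown as log2 CPM in each library relative to the WT mean of that gene (horizontal axis), with WT and 154Q-AXH libraries in different colors. In every gene shown the 4 154Q-AXH libraries lie to 1 side of the 4 WT libraries, a condition under which these genes were chosen.

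Immediate early genes were the largest group of lowered genes in the lists examined. Of the 32 genes in the list, 14 were lowered and 0 raised, a share of 43.8% beside 2.37% of all genes tested, and 30 had a negative log2 fold change, with a median of -0.62. Their summed level was 1751 to 2507 CPM in WT and 1197 to 1437 CPM in 154Q-AXH mice. *Plk2*, a kinase that weakens synapses after strong activity and carries a full CRE in the promoter shown above (chr13:110395046-110400844, plus strand), stood at 264, 233, 261, and 265 CPM in WT and 179, 183, 164, and 138 CPM in 154Q-AXH mice (-0.62 ± 0.088, adjusted p = 0.0101). *Arc*, the cytoskeletal protein that drives removal of AMPA receptors (chr15:74669083-74672570, minus strand), stood at 225, 88.5, 152, and 124 CPM and 57.7, 50.03, 68.8, and 36.9 CPM (-1.47 ± 0.27, adjusted p = 0.028). *Nr4a1*, an orphan nuclear receptor with 4 CRE cores in the promoter shown above (chr15:101254269-101274795, plus strand), stood at 128, 67.5, 88.7, and 73.2 CPM and 43.4, 34.2, 48.8, and 24.1 CPM (-1.24 ± 0.24, adjusted p = 0.032). In each of these genes, the 4 154Q-AXH libraries lay below the 4 WT libraries, and the WT libraries of *Arc* and *Nr4a1* were widely spread. The zinc finger factor *Egr1* stood at 294, 135, 173, and 160.1 CPM in WT and 84.1, 80.0, 102, and 54.7 CPM in 154Q-AXH mice (-1.25 ± 0.25, adjusted p = 0.0375). *Homer1*, whose short form loosens the Homer scaffold, changed by -0.70 ± 0.10, in counts per gene that do not separate its forms. *Ier5l* changed by -1.44 ± 0.14, the Krüppel-like factor *Klf10* by -0.52 ± 0.065, and the AP-1 subunit *Fosl2* by -0.89 ± 0.14. *Egr3* (-0.55 ± 0.12), *Egr4* (-0.73 ± 0.15), *Junb* (-0.83 ± 0.17), *Ier5* (-0.54 ± 0.12), the cyclooxygenase *Ptgs2* (-0.75 ± 0.16), and the period gene *Per1* were also lowered; apart from *Per1*, these and *Fosl2*, *Arc*, *Nr4a1*, and *Egr1* were named after their values were seen.

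Some of the best known members were not called. *Fos* stood at 29.6, 8.81, 14.7, and 10.5 CPM in WT and 7.58, 5.60, 12.1, and 8.17 CPM in 154Q-AXH mice (-0.93 ± 0.38, adjusted p = 0.237), *Npas4*, a neuron-specific activity factor, at 23.0, 6.14, 11.7, and 6.43 CPM and 4.11, 7.44, 5.31, and 7.57 CPM (-0.95 ± 0.42, adjusted p = 0.272), and the neurotrophin gene *Bdnf* at 54.0 to 60.5 CPM and 49.8 to 60.2 CPM (-0.09 ± 0.067, adjusted p = 0.504). *Egr2* had the lowest log2 fold change of the list (-2.40 ± 0.55), but its WT libraries ran from 2.999 to 12.6 CPM and it was not called (adjusted p = 0.0542). It was called in 8 of 19 alternative fits. *Fosb* (-0.88 ± 0.25), *Nptx2*, a secreted pentraxin (-0.90 ± 0.24), and *Jun* (-0.09 ± 0.12) were not called either, although *Fosb* and *Nptx2* were each called in 2 alternative fits. The number of calls in the list was 5 without WT-220, 4 without WT-221, 6 without 154Q-AXH-207, 5 without 154Q-AXH-209, and 5 without 154Q-AXH-217, and 10 to 14 without any other library. It was 5 when the number series entered as a covariate. *Ier5l*, *Homer1*, *Plk2*, and *Klf10* were called in all 8 of these fits. The other 10 lowered genes each lost the call without WT-220 or WT-221, all but *Fosl2* also without 154Q-AXH-209 or 154Q-AXH-217, and all but *Fosl2* and *Per1* without 154Q-AXH-207. *Nr4a1*, *Egr3*, *Ier5*, *Junb*, and *Ptgs2* lost it without WT-70 as well, *Egr4* and *Junb* without 154Q-AXH-218, and *Ptgs2* without WT-77, and the adjusted p values of lost calls ran from 0.0513 to 0.139.

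**Figure D3:**
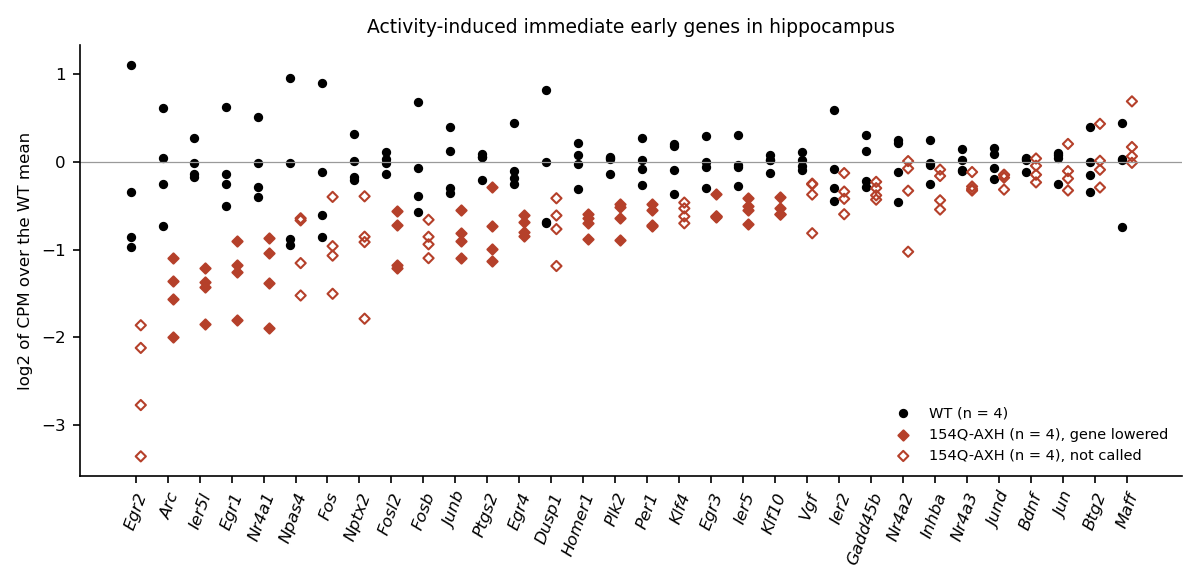
Log2 CPM of each library relative to the WT mean (vertical axis) for the 32 immediate early genes of the list (horizontal axis), with WT libraries as circles and 154Q-AXH libraries as diamonds, filled for the 14 lowered genes and open for those not called. Lowered genes such as *Ier5l* and *Homer1* separate the 154Q-AXH from the WT libraries, while *Fos* and *Npas4*, with a wide spread within each genotype, do not.

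Promoters were searched for the motifs marked in the sequences above, on both strands, in 300 bases around the RefSeq start site (250 before and 50 after). The CRE core TGACG was held by 18 of the 25 immediate early genes with a promoter in the table (72%), beside 32% of 13520 tested genes. It was held by 7 of the 10 lowered members (70%) and by 11 of the 15 members not called (73.3%). Among all DEGs it was held by 36% of 214 lowered and 23.9% of 142 raised genes. The full CRE was held by 2.8% of the lowered and 4.23% of the raised DEGs, beside 3.17% of tested genes. Of the immediate early genes, 1 of the 10 lowered members and 3 of the 15 not called held it. A CArG box was held by 3.27% of the lowered and 1.41% of the raised DEGs, beside 1.69% of tested genes. Of the immediate early genes, 0 of the 10 lowered members and 1 of the 15 not called held a CArG box. The CIC octamers TGAATGAA and TGAATGGA were each held by 1.4% of lowered DEGs, and by 0 and 0.704% of raised DEGs, beside 1.1% and 1.01% of tested genes. A match describes the letters in this window only.

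Interneuron genes were also among the lowered DEGs. Of 24 genes in the list, 4 were lowered and 0 raised (16.7%, beside 2.37% of all genes tested). In all, 23 had a negative log2 fold change, and the median was -0.42. For 15 of the 24 the groups of libraries did not overlap, beside 12.3% of all genes tested, and the summed level was 1790 to 1872 CPM in WT and 1201 to 1518 CPM in 154Q-AXH mice. Besides *Penk*, the lowered genes included *Gad1*, the enzyme that makes GABA, and the peptide gene *Npy*. *Gad1* (chr2:70553072-70602014, plus strand) stood at 368, 369.7, 376, and 378 CPM in WT and 296, 270.0, 311, and 287 CPM in 154Q-AXH mice (-0.36 ± 0.050, adjusted p = 0.0101). *Npy* stood at 38.1, 34.2, 32.7, and 33.4 CPM and 27.2, 28.9, 25.98, and 24.5 CPM (-0.38 ± 0.070, adjusted p = 0.0272). Neither gene showed overlap. The class markers *Sst*, *Pvalb*, and *Vip*, chosen for their role, were not called. *Sst*, for somatostatin, stood at 148, 160.1, 158, and 142 CPM in WT and 112, 103, 99.8, and 32.1 CPM in 154Q-AXH mice (-0.81 ± 0.30, adjusted p = 0.201). *Pvalb*, for parvalbumin, had a log2 fold change of -0.46 ± 0.18 (adjusted p = 0.227), and *Vip* of -1.01 ± 0.25 (adjusted p = 0.066). Of 19 alternative fits, 2 called *Sst*, 3 called *Vip*, and 0 called *Pvalb*. The number of calls in the list was 2 without WT-220, WT-221, or 154Q-AXH-217, and 6 without 154Q-AXH-218. *Npy* lost the call without WT-70, WT-220, WT-221, 154Q-AXH-207, or 154Q-AXH-217 (adjusted p = 0.0509 to 0.0907). Genes that mark neighboring regions are given beside these. Neocortical projection neuron genes summed to 428 to 570.2 CPM in WT and 374 to 446 CPM in 154Q-AXH mice. Of these 15 genes 1 was lowered (6.67%), *Hs3st4* (-0.37 ± 0.051), and 2 were called without WT-70 or 154Q-AXH-218. Striatal genes summed to 192 to 243 CPM and 137 to 199.9 CPM, and 2 of 16 were lowered (12.5%), *Penk* and *Syndig1l* (-0.88 ± 0.16). The part of neighboring tissue in the interneuron values was not tested.

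Markers of the hippocampal fields were counted by field, and differences between the fields were not tested. *Wfs1*, *Bok*, and *Rgs14* are also expressed in other regions, as given above. Of 9 CA1 genes tested, 2 were lowered (22.2%, beside 2.37% of all genes tested), 8 had a negative log2 fold change, and the median was -0.50. The summed level of the CA1 genes was 1347 to 1685 CPM in WT and 944 to 1179.6 CPM in 154Q-AXH mice. *Wfs1*, an endoplasmic reticulum protein used as a label of CA1 (chr5:36966104-36989205, minus strand), stood at 138, 114, 123, and 123 CPM in WT and 56.0, 37.9, 46.8, and 22.8 CPM in 154Q-AXH mice (-1.60 ± 0.22, adjusted p = 0.00906), and *Itpka* was the other. The groups were far apart for *Wfs1*. *Fibcd1*, with the most hippocampus-specific level of the CA1 markers checked, stood at 87.2, 133, 143, and 131 CPM and 98.4, 113, 87.0, and 26.7 CPM, with overlap, and was not called (-0.61 ± 0.36, adjusted p = 0.408). In CA2 and CA3, 5 of 16 genes were lowered and 0 raised (31.2%), with a median of -0.28 and overlapping sums of 1381 to 1702 CPM and 1214 to 1652 CPM. *Rgs14*, the regulator of G protein signaling that limits plasticity in CA2, stood at 83.9, 93.1, 89.8, and 92.9 CPM in WT and 56.8, 66.7, 57.8, and 52.1 CPM in 154Q-AXH mice (-0.62 ± 0.074, adjusted p = 0.00593). *Bok*, a Bcl-2 family member, changed by -0.90 ± 0.12, the scaffold *Homer3* by -0.83 ± 0.16, *Ccdc3* by -0.68 ± 0.13, and the adhesion protein *Amigo2* by -0.76 ± 0.16. Of 12 dentate granule cell genes 0 were called, 3 had an unadjusted p under 0.05, and DESeq2 called 1, with a median of 0.03. Their summed level was 719 to 896 CPM in WT and 623, 783, 700.2, and 1357 CPM in 154Q-AXH mice, so that 154Q-AXH-218 stood above all other libraries; without it the list held 1 call. *Prox1*, the granule cell homeodomain factor, stood at 105, 119, 137, and 159 CPM in WT and 113, 159, 134, and 299.9 CPM in 154Q-AXH mice (0.44 ± 0.28, adjusted p = 0.437), and with *Ttr* as a covariate its estimate was -0.0788. Without 154Q-AXH-218, the CA1 list held 3 and the CA2 and CA3 list 5 calls; the latter held 3 without WT-77 or 154Q-AXH-209 and 2 without WT-220, WT-221, 154Q-AXH-207, or 154Q-AXH-217. *Homer3*, *Ccdc3*, and *Amigo2* each lost the call without WT-220, WT-221, 154Q-AXH-207, or 154Q-AXH-217, with further losses of *Homer3* and *Amigo2* without WT-77, *Homer3* and *Ccdc3* without 154Q-AXH-209, and *Ccdc3* without WT-70 (adjusted p = 0.0562 to 0.116). The part of the granule cell sum, which varied between libraries, in the CA1 and CA3 values was not tested.

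Genes of calcium signaling moved in both directions. Of 40 genes for calcium-binding proteins and calcium/calmodulin kinases, 2 were raised and 6 lowered (20%, beside 2.37% of all genes tested). The median was -0.17, and the summed level was 21619 to 24115 CPM in WT and 18652 to 20439.6 CPM in 154Q-AXH mice. *Pnck* and the CaMKII inhibitor *Camk2n2* (named after its values were seen, 0.55 ± 0.10) were raised. *Itpka*, the neuronal calcium sensor hippocalcin (*Hpca*, -0.66 ± 0.097), and the plasma membrane calcium pump *Atp2b1* (-0.53 ± 0.086) were lowered, with *Cabp7*, *Camkk2*, and *Camkv*. The list held 5 calls without WT-77, 4 without WT-221, 154Q-AXH-207, or 154Q-AXH-209, and 3 without WT-220 or 154Q-AXH-217. *Atp2b1* lost its call without WT-220 or 154Q-AXH-217 (adjusted p = 0.0567 to 0.0623).

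Among the channels, the sodium channel list of 10 genes held *Scn9a*, raised, and 2 lowered genes, *Scn4b* among them, and all 3 were called in each of the 8 fits without 1 library. The share called was 30% of the sodium, 7.46% of the potassium, and 6.25% of the calcium channel genes, beside 2.37% of all genes tested. Of 67 potassium channel genes, the A-type channel *Kcna4* (0.39 ± 0.066), the background channel *Kcnk10* (0.49 ± 0.096), and the calcium-activated channel *Kcnn3* (0.41 ± 0.082) were raised, and *Kcnh3* and the beta subunit *Kcnab2* lowered, with a median of -0.06 for the list. This list held 3 calls without WT-70, 2 without 154Q-AXH-207 or 154Q-AXH-209, and 1 without WT-220, WT-221, or 154Q-AXH-217. Of 16 calcium channel genes 1 was lowered, the beta subunit *Cacnb1* (-0.35 ± 0.059), and 3 were called without 154Q-AXH-218. *Kcna4*, *Kcnk10*, *Kcnn3*, and *Cacnb1* each lost the call without WT-220 or WT-221, with further losses of *Kcna4*, *Kcnn3*, and *Cacnb1* without 154Q-AXH-209, *Kcna4*, *Kcnk10*, and *Kcnn3* without 154Q-AXH-217, *Kcnk10* and *Kcnn3* without WT-70 or 154Q-AXH-207, *Kcnk10* without WT-77, and *Kcnn3* without 154Q-AXH-218 (adjusted p = 0.0517 to 0.104).

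Genes for neurotransmitter receptors are given beside the 2.37% of all genes that were called. Of 36 genes for AMPA, NMDA, and kainate receptors and their auxiliary subunits, 1 was lowered (2.78%), *Cnih2*, which slows AMPA receptor closing (-0.55 ± 0.082), 13 had an unadjusted p under 0.05, and the median was -0.13. This list held 4 calls without WT-70 or WT-77, 3 without 154Q-AXH-218, and 7 with DESeq2. None of 7 metabotropic glutamate receptors was called, 1 had an unadjusted p under 0.05, and DESeq2 called 1. Of 16 GABA receptor genes 2 were lowered (12.5%), the subunits *Gabra5* (-0.45 ± 0.068) and *Gabrd* (-0.86 ± 0.16), both of which serve tonic inhibition outside synapses. *Gabra5* and *Gabrd* each lost the call without 154Q-AXH-217, with further losses of *Gabrd* without WT-70, WT-220, WT-221, 154Q-AXH-207, or 154Q-AXH-209 (adjusted p = 0.0525 to 0.0917). Of 40 GTPase regulators and synaptic scaffolds, 6 were lowered and 0 raised (15%), with a median of -0.17 and summed levels of 7415 to 9048 CPM in WT and 7015 to 7321 CPM in 154Q-AXH mice. They were *Git1*, *Rgs14*, *Homer1*, *Homer3*, *Kalrn*, a guanine nucleotide exchange factor of spines, and *Rasgrp1*, a calcium- and diacylglycerol-driven activator of Ras (691, 614, 742, and 775 CPM in WT, 464, 472, 453, and 355 CPM in 154Q-AXH mice, -0.69 ± 0.10). This list held 4 calls without WT-220 or 154Q-AXH-217.

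Of 50 synaptic adhesion genes, *Lingo3* (-0.96 ± 0.10) and *Lingo1* (-0.53 ± 0.079), which encode leucine-rich repeat membrane proteins, and *Elfn1*, which recruits metabotropic glutamate receptors across the synapse (-0.68 ± 0.12), were lowered, and *Slitrk2* (0.41 ± 0.082) was raised. In this list 8% were called, beside 2.37% of all genes tested, and the median was 0.07, above that of all genes. Of 66 axon guidance genes *Epha10* and *Sema7a* were lowered (3.03%). Of 48 genes for synaptic vesicles and release, the synaptotagmin gene *Syt12* (-0.52 ± 0.10) and the calcium sensor gene *Doc2b* (-0.55 ± 0.12) were lowered (4.17%). Of 53 growth factor genes tested, *Igfbp4* was lowered (-1.10 ± 0.24, 1.89%). These 3 shares lie near the 2.37% of all genes tested. Peptides and their receptors were split, with *Penk* and *Npy* lowered and *Sstr1*, the neurotensin gene *Nts* (1.06 ± 0.16), and the neuropeptide Y receptor *Npy1r* (0.39 ± 0.084) raised, among 38 genes. Of the peptide list 13.2% were called, and its median was -0.06. It held 9 calls without 154Q-AXH-218 and 3 without WT-70, WT-220, WT-221, or 154Q-AXH-217. The growth factor list held 2 calls without 154Q-AXH-218. *Elfn1*, *Slitrk2*, *Syt12*, *Doc2b*, *Igfbp4*, and *Npy1r* each lost the call without WT-220, WT-221, or 154Q-AXH-217, with further losses of *Elfn1*, *Slitrk2*, *Syt12*, *Igfbp4*, and *Npy1r* without WT-70, *Slitrk2*, *Syt12*, *Doc2b*, *Igfbp4*, and *Npy1r* without WT-77, *Elfn1*, *Slitrk2*, *Doc2b*, *Igfbp4*, and *Npy1r* without 154Q-AXH-209, *Syt12*, *Doc2b*, and *Igfbp4* without 154Q-AXH-207, and *Doc2b* without 154Q-AXH-218 (adjusted p = 0.0515 to 0.134).

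**Figure D4:**
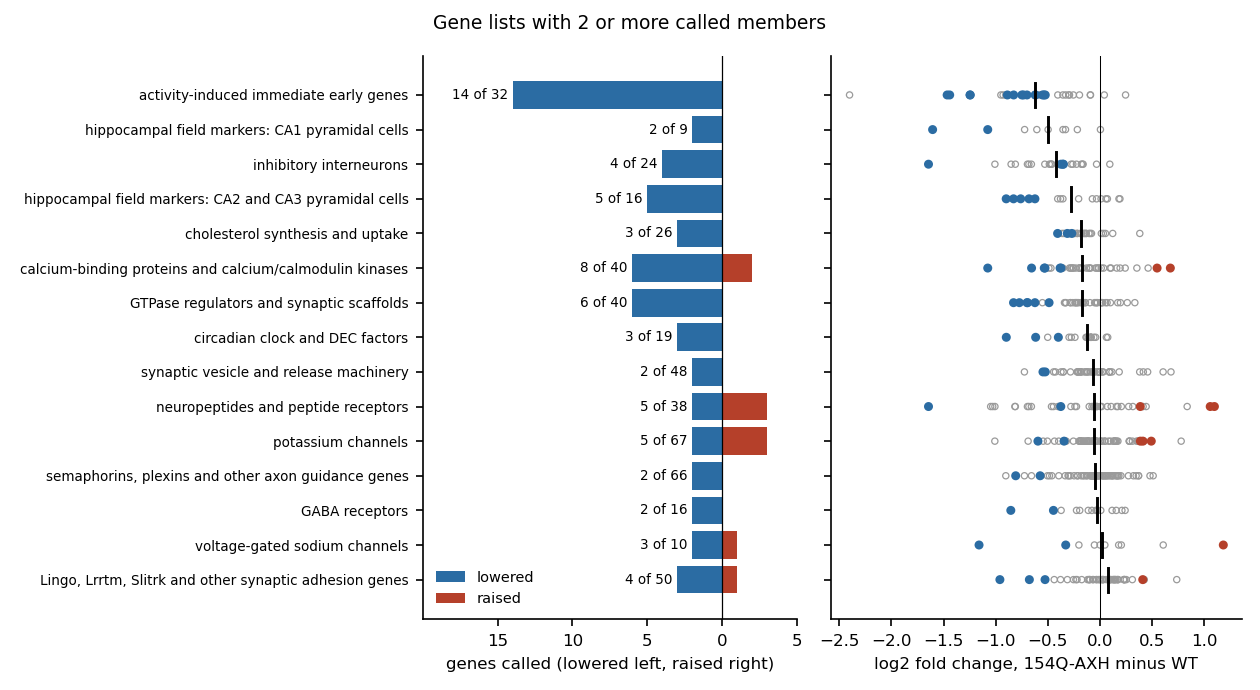
The 15 gene lists with at least 2 DEGs, other than those for neighboring regions and for the *Atxn1* neighborhood, with the number of members lowered (bars to the left) and raised (bars to the right) in the left panel and the log2 fold change of every tested member (points) with the median (black bar) in the right panel. The immediate early genes have the most lowered members, 14 of 32, and the lowest median, -0.62.

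The genes by which MAPK signaling feeds back on itself are known targets of CIC repression and were examined as a list. Of 16 such genes, 1 was called (6.25%, beside 2.37% of all genes tested), *Dusp5*, which was lowered. In all, 13 had a negative log2 fold change, the median was -0.21, and 10 had an unadjusted p under 0.05. The ETS factors *Etv1* (-0.41 ± 0.14, adjusted p = 0.172), *Etv4* (0.32 ± 0.088, adjusted p = 0.0977), and *Etv5* (-0.28 ± 0.11, adjusted p = 0.222) and the Sprouty inhibitor *Spry4* (-0.27 ± 0.092, adjusted p = 0.161) were not called. *Etv5* stood at 84.9, 68.3, 79.0, and 75.7 CPM in WT and 71.3, 64.7, 67.9, and 49.6 CPM in 154Q-AXH mice. The summed level of the list was 761 to 919 CPM in WT and 637 to 777 CPM in 154Q-AXH mice. DESeq2 called 3 members, and 2 were called without 154Q-AXH-218. Of the genes above that were not called, *Etv4* was called in 1 of 19 alternative fits.

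The clock list held 3 lowered genes of 19 (15.8%, beside 2.37% of all genes tested) and a median of -0.12. The lowered genes were *Bhlhe40*, *Per1* (-0.62 ± 0.11), and the nuclear receptor *Nr1d1* (-0.40 ± 0.088). The list held 1 call without WT-220, WT-221, 154Q-AXH-209, or 154Q-AXH-217, which was *Bhlhe40*; *Per1* and *Nr1d1* each lost the call without WT-220, WT-221, 154Q-AXH-209, or 154Q-AXH-217, with further losses of *Nr1d1* without WT-70, 154Q-AXH-207, or 154Q-AXH-218 (adjusted p = 0.0527 to 0.133). Of 26 genes for cholesterol synthesis and uptake 3 were lowered (11.5%), the lanosterol demethylase *Cyp51* (-0.31 ± 0.051), *Msmo1* (-0.41 ± 0.079), and the regulator *Srebf2* (-0.27 ± 0.053). In all, 21 of the 26 had a negative log2 fold change, the median was -0.18, and the sums did not overlap, at 1279 to 1408 CPM in WT and 1061 to 1204 CPM in 154Q-AXH mice. The synthase gene *Hmgcs1* was not called (-0.40 ± 0.097, adjusted p = 0.0631), although 2 of 19 alternative fits called it. *Cyp51*, *Msmo1*, and *Srebf2* each lost the call without 154Q-AXH-209, with further losses of *Msmo1* and *Srebf2* without WT-70, WT-220, WT-221, or 154Q-AXH-217 and *Msmo1* without WT-77, 154Q-AXH-207, or 154Q-AXH-218 (adjusted p = 0.0505 to 0.111). The inducible heat shock chaperone *Hspa1b* stood at 9.11, 10.6, 13.3, and 14.3 CPM in WT and 5.36, 6.39, 5.96, and 5.96 CPM in 154Q-AXH mice, without overlap (-0.998 ± 0.14, adjusted p = 0.0103), the only DEG of 30 chaperone genes. The chaperone list held 1 call (3.33%, near the share of all genes), 2 without WT-70, WT-77, or 154Q-AXH-207, and 3 without 154Q-AXH-218.

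Few markers of cells other than neurons were called. None of 26 oligodendrocyte and myelin genes was called, although 25 had a negative log2 fold change, 12 had an unadjusted p under 0.05, and the median was -0.43; their sum was 7401 to 9643 CPM in WT and 3829 to 8072 CPM in 154Q-AXH mice. All 17 choroid plexus genes (median -0.97, sum 2586 to 8721 CPM in WT and 207.2 to 5711 CPM in 154Q-AXH mice) and all 11 ependymal genes tested (median -0.72, sum 36.7 to 85.2 CPM and 11.6 to 50.8 CPM) had a negative log2 fold change. Of the choroid plexus genes 0 were called, 0 had an unadjusted p under 0.05, and DESeq2 called 0, and of the ependymal genes 0 were called, 3 had an unadjusted p under 0.05, and DESeq2 called 1. A fit with the log2 CPM of *Ttr* as a covariate called 216 DEGs, 7 of them immediate early genes, and a fit with that of *Xist* called 133, 5 of them immediate early genes. Of 23 astrocyte genes 1 was lowered, *Atp1b2* (-0.24 ± 0.047), a share of 4.35% beside 2.37% of all genes tested. Without 154Q-AXH-218, 3 astrocyte genes were called. None of 23 microglia genes (3 with an unadjusted p under 0.05), 25 vascular genes (1), and 31 interferon-stimulated genes (5) was called by edgeR, and DESeq2 called 0, 0, and 2. The same held for 24 genes of immature neurons and proliferation (7, DESeq2 5), 9 polyglutamine disease genes (2, DESeq2 1), 74 nuclear subunits of oxidative phosphorylation (2, DESeq2 0), 15 cerebellar genes (2, DESeq2 1), and 5 brainstem genes (2, DESeq2 1). Of 11 thalamic genes (18.2% called) *Lhx9* was raised (0.81 ± 0.18) and *Prkcd* lowered (-0.70 ± 0.093). The thalamic sum was 113 to 166 CPM in WT and 115 to 167 CPM in 154Q-AXH mice. *Atp1b2*, *Lhx9*, and *Syndig1l* each lost the call without WT-70, WT-220, 154Q-AXH-209, or 154Q-AXH-217, with further losses of *Lhx9* and *Syndig1l* without WT-77, *Atp1b2* and *Lhx9* without WT-221, *Atp1b2* without 154Q-AXH-207, and *Lhx9* without 154Q-AXH-218 (adjusted p = 0.0559 to 0.122).

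The neighbors of the knockin allele were counted separately. Of 174 tested genes whose start lies within 10 Mb of that of *Atxn1*, 6 were lowered and 0 raised (3.45%, beside 2.37% of all genes), and 87 had a negative and 87 a positive log2 fold change. The lowered genes were *Rgs14*, the cargo receptor *Lman2* (-0.31 ± 0.047), the adaptor *Dok3* (-0.69 ± 0.12), the helix-loop-helix inhibitor *Id4* (-0.41 ± 0.081), *Mxd3*, and *Cap2*. The window held 4 calls without WT-70, WT-77, 154Q-AXH-207, or 154Q-AXH-209, 3 without WT-220, 2 without WT-221, and 1 without 154Q-AXH-217. *Lman2*, *Dok3*, and *Id4* each lost the call without 154Q-AXH-217, with further losses of *Dok3* and *Id4* without WT-221, *Id4* without WT-70, WT-77, or 154Q-AXH-207, and *Dok3* without WT-220 (adjusted p = 0.0534 to 0.105).

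To ask what uncoupling from CIC changes on top of the expansion, the 4 154Q-AXH libraries were compared with 3 libraries of *Atxn1* 154Q/2Q mice, whose expanded allele can bind CIC (154Q-69, 154Q-71, and 154Q-75). The fourth, 154Q-76, was left out because it stood apart from its group, with 56.7 CPM of *Penk* and 245 CPM of *Scn4b* where the other 3 held 4.68 to 5.94 CPM and 13.3 to 14.2 CPM. Of 21191 genes, 1 was called (0.00472%), while 1595 had an unadjusted p under 0.05 and DESeq2 called 25. The gene was *Hoxa2*, a hindbrain patterning factor, with counts of 38, 29, and 27 in 154Q libraries, 1, 0, 1, and 2 in 154Q-AXH libraries, and 0 in each WT library (adjusted p = 0.0021); no gene was called without 154Q-AXH-207 or 154Q-AXH-217, and 2 were without 154Q-75. Of the 488 hippocampal DEGs, 484 were tested, 0 were called, 78 had an unadjusted p under 0.05, and DESeq2 called 6. All 154Q mice have numbers below 100 and all 154Q-AXH mice numbers above 200, so a difference between the 2 number series and the genotype cannot be told apart here.

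The levels of the leading genes in the 3 154Q libraries are given beside those above. *Penk* stood at 4.88, 5.94, and 4.68 CPM, which gives a difference of 154Q-AXH from 154Q of 0.22 ± 0.11. *Bhlhe40* stood at 52.2, 59.8, and 58.6 CPM (0.06 ± 0.061) and *Itpka* at 64.3, 76.1, and 84.6 CPM (0.25 ± 0.12). Without 154Q-76, both mutant groups thus lay below the WT libraries for these 3 genes. In 154Q-76 itself, *Bhlhe40* stood at 57.6 and *Itpka* at 48.2 CPM, also below the WT libraries, but *Penk* at 56.7 CPM, above them. The *Penk* level was a reason to leave 154Q-76 out. The *Penk* level and fold change in the 3 154Q libraries kept are therefore a description only. *Dusp5* stood at 9.28, 12.8, and 12.3 CPM (-0.30 ± 0.22), *Git1* at 181, 181, and 202 CPM (0.06 ± 0.060), and *Wfs1* at 30.6, 50.2, and 44.2 CPM (-0.02 ± 0.28). Of the immediate early genes, *Arc* stood at 80.9, 74.5, and 80.5 CPM (-0.55 ± 0.17), *Egr1* at 159, 131, and 123 CPM (-0.77 ± 0.18), and *Plk2* at 168, 181, and 183 CPM (-0.08 ± 0.093). Of the raised genes, *Pnck* stood at 75.9, 72.0, and 73.3 CPM (0.07 ± 0.056), *Scn9a* at 12.8, 8.96, and 11 CPM (-0.09 ± 0.15), and *Sstr1* at 16.1, 16.7, and 19.9 CPM (0.02 ± 0.14). The standard errors show what could be seen; a difference that is not called does not show that the alleles act alike. Each mutant genotype was set against the same 4 WT libraries, and the log2 fold changes of 154Q over WT were -1.87 for *Penk*, -0.96 for *Bhlhe40*, -1.33 for *Itpka*, -1.22 for *Dusp5*, and 0.60 for *Pnck*, in a comparison in which 5.73% of genes were called.

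Other regions of the same mice were tested in the same way, each in its own fit. Of the hippocampal DEGs, 30 of 452 tested were called in the cerebellum, 34 of 454 in the striatum, and 236 of 457 in the cortex, where 1.19%, 0.414%, and 9.32% of all genes were called. The cortical fit includes the libraries labelled 154Q-AXH-207 and WT-221, for which the file name or the sex-linked genes do not match the label. Striatal and cortical libraries held fewer counted read pairs than hippocampal ones, and regions were not compared at equal depth. In the brainstem, with 3 154Q-AXH libraries, 0 of 467 were called and 91 had an unadjusted p under 0.05, and 0.00473% of all genes were called. The *Penk* log2 fold change was 0.07 ± 0.057 in the cerebellum, -1.56 ± 0.65 in the striatum, and -0.95 ± 0.20 in the cortex. *Dusp5* had log2 fold changes of -0.73 ± 0.081, -0.62 ± 0.15, and -0.79 ± 0.12, and *Kcnh3* of -1.27 ± 0.22, -0.60 ± 0.12, and -0.57 ± 0.089, in the same order. *Pnck* had log2 fold changes of 0.16 ± 0.056, 0.72 ± 0.11, and 0.60 ± 0.11.

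Whether the effect itself differed between regions was tested as an interaction over 21935 genes. Against the cerebellum 87 genes (0.397%) differed, 47 of them hippocampal DEGs. These DEGs were chosen on the hippocampal contrast that enters the interaction, so the share is a description only. The hippocampal minus the cerebellar effect was -1.58 ± 0.21 for *Ier5l* (adjusted p = 0.000505) and -0.75 ± 0.11 for *Plk2* (adjusted p = 0.00171), and both calls were kept in all 8 fits without 1 mouse. It was -1.49 ± 0.28 for *Wfs1* (adjusted p = 0.0138), 1.61 ± 0.27 for *Clec1a* (adjusted p = 0.00741), and 1.75 ± 0.32 for *Tdrd12* (adjusted p = 0.0121). These calls were lost for *Wfs1* without WT-70, WT-220, WT-221, or 154Q-AXH-209 (adjusted p = 0.0506 to 0.0987), *Clec1a* without WT-70 (adjusted p = 0.053), and *Tdrd12* without WT-220, WT-221, 154Q-AXH-209, or 154Q-AXH-217 (adjusted p = 0.0543 to 0.0987). Without 1 mouse, the number of genes that differed was 27 without WT-70, 31 without WT-77, 19 without WT-220, 9 without WT-221, 29 without 154Q-AXH-207, 7 without 154Q-AXH-209, 21 without 154Q-AXH-217, and 44 without 154Q-AXH-218.

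Against the striatum 18 genes (0.0821%) differed, 8 of them DEGs, of which *Wfs1* was the only gene named by the rule (-1.36 ± 0.28, adjusted p = 0.0461). When 1 mouse was left out, the call was lost for *Wfs1* without WT-70, WT-77, WT-221, 154Q-AXH-209, 154Q-AXH-217, or 154Q-AXH-218 (adjusted p = 0.0728 to 0.22). The number was 9 without WT-77, 1 without WT-221, 7 without 154Q-AXH-209, 10 without 154Q-AXH-218, and 12 to 24 without any other mouse. Against the cortex 17 genes (0.0775%) differed, 3 of them DEGs. They were *Arhgap12*, a GTPase-activating protein (-0.54 ± 0.11, adjusted p = 0.0305), *Ccdc88b* (0.82 ± 0.15, adjusted p = 0.0182), and the zinc finger gene *Zfp945* (0.52 ± 0.092, adjusted p = 0.0141), all named after their values were seen. The number for the cortex was 28 without WT-70, 18 without WT-220, 7 without 154Q-AXH-207, 6 without 154Q-AXH-218, 4 without 154Q-AXH-217, 2 without WT-77, 1 without 154Q-AXH-209, and 0 without WT-221. It was also 0 without the cortical libraries of 154Q-AXH-207 and WT-221, for which the file name or the sex-linked genes do not match the label.

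**Figure D5:**
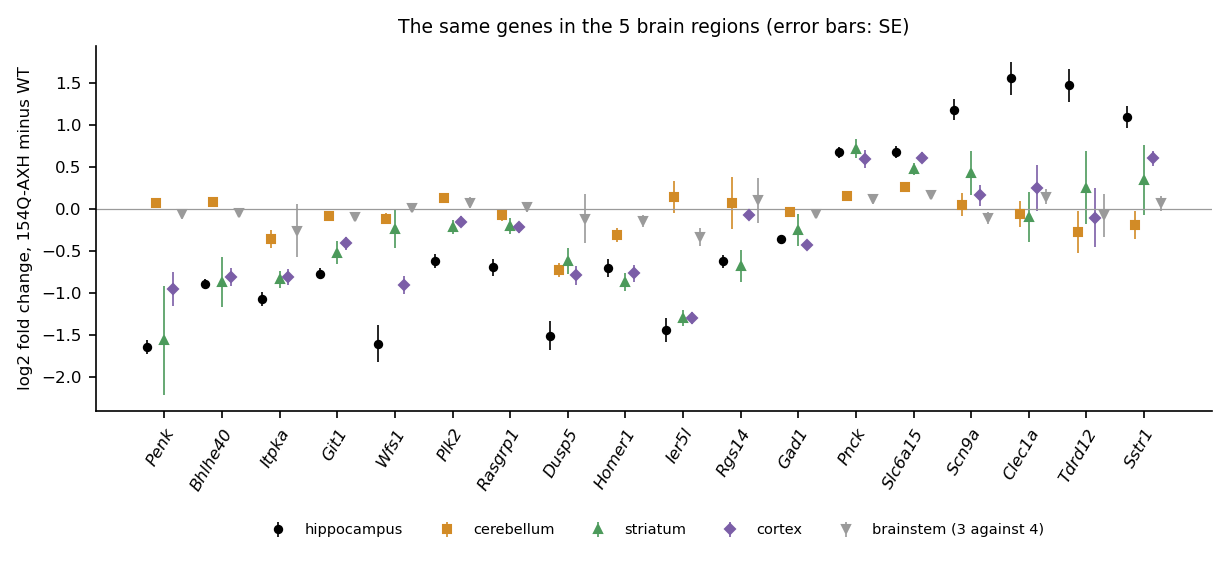
Log2 fold change of 154Q-AXH over WT (vertical axis) with its standard error (bars) for 18 genes named in the text (horizontal axis), in the hippocampus and the other 4 regions (colors). *Wfs1* lies at -1.60 in the hippocampus and -0.12 in the cerebellum, while *Dusp5* lies at -1.51 and -0.73.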

How the data were processed

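Total RNA was isolated from the dissected hippocampus of mice aged 10 weeks and sequenced in pairs of reads. Per the methods and the submitters' processing notes, the authors removed adapters with Trimmomatic 0.36 and then mapped and counted reads with STAR 2.7.2d on GRCm38.p6 (GENCODE M18). The notes also name DESeq2 1.28.1. The deposited values are raw counts of read pairs per gene, without normalization, for 54232 mouse genes. The unstranded counts were taken, since 49% to 49.44% of stranded counts lay on the first strand; the 2 stranded columns and the lines that hold no mouse gene were left out. Each library is 1 mouse, so p values measure the spread between mice. The 8 libraries held 69.47 M to 106.5 M counted read pairs.

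The 4 WT and 4 154Q-AXH hippocampal libraries were fitted alone with edgeR 4.0.16 in R 4.3.3 (filterByExpr, TMM, glmQLFit, glmQLFTest), with Benjamini-Hochberg adjustment over all 20607 tested genes. The standard error is the size of the log2 fold change over the root of its F statistic. The comparison with 154Q mice used 3 of their 4 libraries. Region differences were tested as interactions over all WT and 154Q-AXH libraries of 4 regions. Names and positions come from GENCODE M21 for GRCm38 (54165 genes matched), and promoters from RefSeq. The script was tested on simulated counts.

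The genes named are the 15 raised and 15 lowered DEGs of lowest p, and the 5 of largest fold change in each direction, among those without overlap between groups and above 1 CPM in 1 group; up to 4 called members of each list; members chosen for their role; and *Atxn1*, its partners, and library checks. Other genes were named after their values were seen, and some genes that the rule selects are not reported here. The libraries compared and the gene lists were chosen with earlier results of these data known. Alternatives were DESeq2 1.42.0, its size factors in edgeR, no filter, 3-genotype models, the mouse number series, *Xist*, or *Ttr* as a covariate, only WT-220 and WT-221 as controls, each library left out in turn, mouse as a block for region differences, and, chosen after seeing the data, leaving out WT-77 with 154Q-AXH-218 and thinning to equal depth.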

Additional observations from a re-analysis of the deposited data

Results flagged for a closer look

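Differences of the 154Q-AXH effect between the hippocampus and another region passed the interaction test for several named genes (adjusted p under 0.05, quasi-likelihood test of edgeR after Benjamini-Hochberg adjustment). All values are hippocampal minus other log2 fold changes. Against the cerebellum, lowered genes of synaptic activity and plasticity were *Ier5l* (-1.58), *Plk2* (-0.75), *Arc* (-1.59), *Egr1* (-1.30), and *Ier5* (-0.85). The regions come from the same mice, and with mouse as a block the calls of *Egr1* and *Ier5* (both adjusted p = 0.0634) and of *Abcb1b* (adjusted p = 0.0566) were lost. *Itpka* (-0.72), *Git1* (-0.69), *Rasgrp1* (-0.62), *Atp2b1* (-0.59), *Cacnb1* (-0.51), *Gabrd* (-0.88), and *Wfs1* (-1.49), which serve calcium, GTPase, and receptor signaling or the endoplasmic reticulum, also had the more negative effect in the hippocampus. The raised genes *Clec1a* (1.61), *Tdrd12* (1.75), *Scn9a* (1.13), *Abcb1b* (0.71), *Rimklb* (0.52), *Spag17os* (1.45), and *Tex15* (1.44) had the more positive effect there. Against the striatum, *Wfs1* differed by -1.36. *Ier5l* and *Plk2* kept the call in all 8 fits without 1 mouse. *Egr1*, *Ier5*, *Atp2b1*, and *Rimklb* lost it in all 8. *Arc*, *Itpka*, *Scn9a*, *Gabrd*, *Spag17os*, and *Tex15* lost it in 7, and *Git1*, *Rasgrp1*, *Abcb1b*, and, against the striatum, *Wfs1* in 6. Against the cerebellum, *Cacnb1*, *Tdrd12*, and *Wfs1* lost it in 4 and *Clec1a* in 1.

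Single libraries stood apart from the other 3 of their group, by Dixon's criterion, in 12 of 236 groups of 4 libraries; chance gives about 1 in 20. Library 154Q-AXH-218 was low in *Bhlhe40* (55.4 CPM), *Etv1* (73.1), *Rasgrp1* (355), and *Sst* (32.1 CPM, against 99.8 to 112 in the other 3) and high in *Onecut1* (3.16) and *Egr3* (103 CPM, against 86.0 to 87.0 in the other 3). Library 154Q-AXH-207 stood apart in *Cbx8* (14.2 CPM) and 154Q-AXH-209 in *Id4* (88.7). Among WT libraries, WT-220 stood apart in *Bdnf* (54.0) and *Ptgs2* (29.3), WT-70 in *Egr2* (12.6), and WT-77 in *Plk2* (233).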

How the results depend on the processing

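The 30 genes of lowest p kept their direction under all 19 alternatives, which says little for genes chosen without overlap between groups. Of the 30, 24 were called under each alternative. *Penk*, *Scn4b*, *Kcnh3*, and *Ctxn1* lost the call only in a model of 3 genotypes that includes library 154Q-76. Of 20607 genes, 488 were DEGs. The number was 1393 with DESeq2, 786 in a model of 3 genotypes without 154Q-76 and 279 with it, 328 with the number series of the mice as a covariate, 321 with only WT-220 and WT-221 as controls, 133 with *Xist*, 216 with *Ttr*, 732 without WT-77 and 154Q-AXH-218 (chosen after seeing the data), and 137 to 582 when 1 library was left out. The main split was 200 raised and 288 lowered. It was 61 and 267 with the number series, 60 and 261 with only WT-220 and WT-221, 54 and 162 with *Ttr*, 40 and 93 with *Xist*, 59 and 134 without 154Q-AXH-209, 233 and 499 without WT-77 and 154Q-AXH-218, and 249 and 261 with upper-quartile scaling (median of all genes 0.0128). Against 154Q, 1 gene was called, 25 with DESeq2, 0 with 154Q-76, and 0 to 2 without 1 library.

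The sign turned for *Cic*, which was not called under any alternative: -0.0617 with the number series, -0.0572 with only WT-220 and WT-221, -0.0141 with *Ttr*, -0.0296 without WT-77, and -0.0569 without WT-77 and 154Q-AXH-218. Without 1 library, *Cic* ran from -0.0296 to 0.0878. It turned for *Zkscan1* (-0.00357 with the number series) and *Prox1* (-0.0788 with *Ttr*), neither called. The cause was not tested.

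No paired analysis was possible for WT and 154Q-AXH within the hippocampus because the genotypes share no mouse. The same mice gave the 4 regions, so the numbers pair libraries by animal there (deviations of a mouse in the hippocampus and another region correlated at -0.26 to 0.38). With mouse as a block, 75 genes differed in effect against the cerebellum (87 without it), 19 (18) against the striatum, and 12 (17) against the cortex. The block ended the calls of *Abcb1b* (adjusted p = 0.0566), *Egr1*, and *Ier5* (both 0.0634) against the cerebellum. The cerebellar number was 57 with no filter, 52 without the cortical libraries of 154Q-AXH-207 and WT-221, and 7 to 44 without 1 mouse. The striatal number was 10 without those cortical libraries and 1 to 24 without 1 mouse, and the cortical number 0 and 0 to 28.

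Limits: 4 mice a group, 1 with *Xist* and without *Ddx3y*, dissections with unequal choroid plexus, and counts that ignore strand. WT mice alone link the 2 mouse number series.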
